A study of Mus musculus with 12 samples.

Results

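Messenger RNA of 5 kidney injury markers was followed across 12 mouse kidney libraries. The genes were Havcr1, which encodes KIM-1, Lcn2, which encodes NGAL, Clu, which encodes clusterin, Cd24a, which encodes CD24, and Plaur, which encodes the urokinase receptor uPAR. They were chosen by name as the 5 rows of a table of 33188 genes whose symbol matched, and all 5 passed the filter on low counts that left 19772 genes to be tested. The kidneys came from wild-type mice and fell into 3 groups of 4 libraries. CTL was the control group. HUA was a model of hyperuricemia, an excess of uric acid in blood, made with potassium oxonate, an inhibitor of the urate-degrading enzyme uricase, together with hypoxanthine, a purine that is turned into uric acid. XZSW was the model given Xin-Zi-Sheng-Wan decoction, a preparation of traditional Chinese medicine, and the study asked what this decoction does to renal injury in the model. The labels used here give no dose, duration, age or sex, and they do not state whether CTL mice received vehicles. The data columns carry the letters C, N and M, which the sample descriptions assign to CTL, HUA and XZSW. N and M are not initials of HUA and XZSW, and had they been swapped, the values of these groups would be swapped here too.

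KIM-1 is a membrane protein of the TIM family that binds phosphatidylserine on dying cells, and injured proximal tubule cells display it and shed its outer part into urine. NGAL is a small secreted lipocalin that binds iron-carrying siderophores, and it is made by stressed nephron epithelium and stored in granules of neutrophils. Clusterin is a secreted chaperone that holds misfolded proteins in solution and appears in damaged tubules, CD24 is a small glycosylated surface anchor protein of immature and repairing epithelium and of blood cells, and uPAR holds the protease urokinase at the cell surface. KIM-1, NGAL and clusterin are used as urinary markers of tubular damage.

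Havcr1 (ENSMUSG00000040405) lies on the plus strand at chr11:46735080-46779578 of GRCm38. Lcn2 (ENSMUSG00000026822) lies on the minus strand at chr2:32384633-32387797. Clu (ENSMUSG00000022037) lies on the plus strand at chr14:65968483-65981547. Cd24a (ENSMUSG00000047139) lies on the plus strand at chr10:43578284-43584265. Plaur (ENSMUSG00000046223) lies on the plus strand at chr7:24462484-24475968. All 5 are protein-coding genes and none overlaps another annotated gene. Transcripts of 3 pseudogenes or predicted genes matched a member over at least 100 bases at 90% identity or more. Of these, Gm6212, which resembles Cd24a, held at most 0.0126% of the Cd24a level in a group mean, and Gm4926, which resembles Havcr1, held at most 0.877% of the Havcr1 level. The third, Gm15352, resembles Cd24a and was not analysed here.

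Promoter sequences from RefSeq (GRCm38.p6; 250 bases before and 50 after each start site) were found for 3 of the 5 members, with 1 window for Lcn2, 1 for Plaur and 3 for Havcr1. They are shown as a description only, and 4 of the 5 windows, those with a motif match, are printed 5′ to 3′ on the gene's strand. Capitals mark matches to the motifs of AP-1 (TGANTCA), C/EBP (TTGCNNAA on either strand) and heat shock factor (GAANNTTC).
Lcn2, chr2:32387690-32387989, minus strand: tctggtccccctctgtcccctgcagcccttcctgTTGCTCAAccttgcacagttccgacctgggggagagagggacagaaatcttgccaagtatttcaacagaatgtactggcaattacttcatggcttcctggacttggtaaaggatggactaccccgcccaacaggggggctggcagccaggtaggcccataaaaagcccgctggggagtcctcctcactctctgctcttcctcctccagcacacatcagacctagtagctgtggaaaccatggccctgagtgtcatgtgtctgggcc
Plaur, chr7:24462233-24462532, plus strand: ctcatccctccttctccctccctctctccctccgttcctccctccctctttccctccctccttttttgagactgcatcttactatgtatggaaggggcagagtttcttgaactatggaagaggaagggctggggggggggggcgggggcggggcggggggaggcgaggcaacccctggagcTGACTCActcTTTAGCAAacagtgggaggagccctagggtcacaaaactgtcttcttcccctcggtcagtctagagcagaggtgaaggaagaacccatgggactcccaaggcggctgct
Havcr1, chr11:46750261-46750560, plus strand: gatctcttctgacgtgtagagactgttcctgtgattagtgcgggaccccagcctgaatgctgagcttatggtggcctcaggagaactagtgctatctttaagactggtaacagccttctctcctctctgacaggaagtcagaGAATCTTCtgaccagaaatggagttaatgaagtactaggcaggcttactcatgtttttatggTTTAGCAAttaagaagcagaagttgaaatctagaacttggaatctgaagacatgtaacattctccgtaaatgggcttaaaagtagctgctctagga
Havcr1, chr11:46750918-46751217, plus strand: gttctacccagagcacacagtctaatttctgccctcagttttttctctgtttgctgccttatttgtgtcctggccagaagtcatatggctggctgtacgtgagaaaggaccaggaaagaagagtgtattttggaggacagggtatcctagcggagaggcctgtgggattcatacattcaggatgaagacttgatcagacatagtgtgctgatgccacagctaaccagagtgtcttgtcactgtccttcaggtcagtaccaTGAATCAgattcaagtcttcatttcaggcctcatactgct

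The Lcn2 window held 1 C/EBP match at -216 to -209 from the start site. The Plaur window held the AP-1 match TGACTCA at -69 to -63 and a C/EBP match on the other strand at -59 to -52, so that these matches lay 3 bases apart. The upstream of the 2 printed Havcr1 windows held a heat shock match at -108 to -101 and a C/EBP match on the other strand at -46 to -39, and the downstream window held an AP-1 match, TGAATCA, at 10 to 16 past the start. Among all 32851 promoters of the same length, 7.81% held the AP-1 motif, 10.8% the C/EBP motif and 7.86% the heat shock motif on either strand. The letters TTCNNNGAA (STAT, in 8.3% of promoters), TATAAA (in 13.6%) and the NF-kB motif (in 8.46%) were not in the 5 windows. A match is a description of the letters and not a site of binding.

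Library totals ranged from 51.6 to 74.3 M counts. Levels are given as CPM, counts relative to a library size scaled by TMM, the trimmed mean of M-values. The order of the markers and their ratios are read from deposited FPKM, fragments per kilobase of gene and per unit of depth. Sums over lists and genes set beside them are in CPM, which is not corrected for gene length. Changes were tested in edgeR by a quasi-likelihood fit to the 12 libraries. P-values were adjusted by Benjamini-Hochberg over the 19772 genes, and genes with an adjusted p under 0.05 were called. The labels do not state that replicate libraries were made from different mice, so a p-value reflects the scatter of these samples alone, and that scatter may be technical. The libraries carried kidney markers at high level, with a summed level of 12 proximal tubule genes of 38654 to 44977 CPM in CTL, 7758 to 21604 CPM in HUA and 24401 to 32966 CPM in XZSW. Of these 12 genes, 10 were lower in HUA than in CTL and 9 were higher in XZSW than in HUA at an adjusted p under 0.05. Among all tested genes, 12.8% and 7.09% were called in these directions. In bulk tissue, fewer cells of a type and less RNA per cell cannot be told apart. The share of counts from mitochondrial genes was 11.7% to 14.9% in CTL, 7.85% to 11.3% in HUA and 13.5% to 17.2% in XZSW, so that HUA lay below both other groups, and its part in the results was not tested. The libraries also split by how counts depend on GC content. The slope was 0.21 to 0.33 log2 units per 10% GC in HUA2, HUA3, HUA4, XZSW3 and XZSW4, and between -0.06 and 0.05 in the other 7, which include all CTL libraries.

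All 5 markers rose in HUA kidneys against CTL, by 2.48 to 7.81 on the log2 scale, and all 5 fell in XZSW against HUA. Of all tested genes, 27.8% were called in HUA against CTL, 14.9% as higher and 12.8% as lower. In XZSW against HUA 15.4% were called, 8.34% as lower and 7.09% as higher. The median log2 change of the 5 was 4.43 in HUA against CTL and -3.74 in XZSW against HUA, beside 0.06 and 0.01 over all tested genes. In XZSW against CTL, Clu and Lcn2 were called higher and the other 3 were not called, where 4.99% of all tested genes were called, 2.72% as higher and 2.27% as lower. All HUA libraries lay above all CTL libraries for the 5 markers, as they did for 15.1% of tested genes, and all XZSW libraries lay below all HUA libraries, as for 9.08%. XZSW lay wholly above CTL for 2 markers, as for 10.3% of tested genes. The 3 comparisons share libraries, so that the HUA libraries enter both the rise and the fall.

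**Figure D1:**
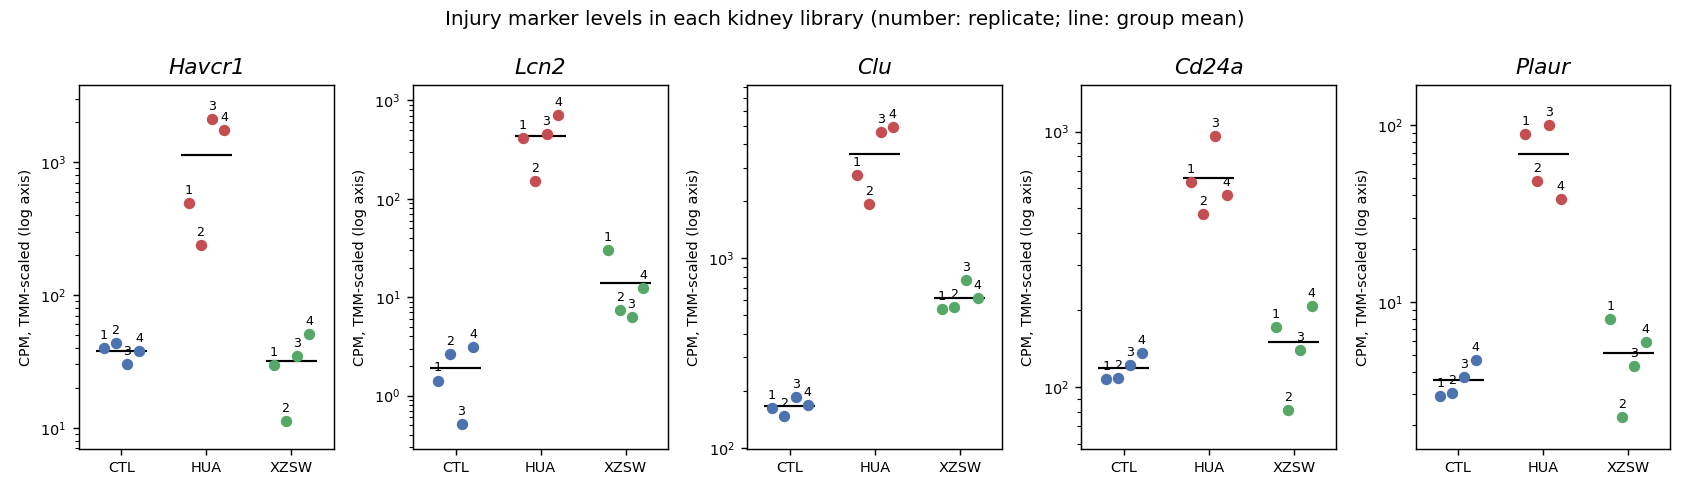
CPM of each marker in each library on a log axis, grouped as CTL, HUA and XZSW; points are libraries with their replicate number and lines are group means of 4. Every HUA point lies above every CTL and every XZSW point of the same gene, while XZSW lies wholly above CTL only for Lcn2 and Clu.

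Havcr1 stood at 40.0, 43.4, 30.2 and 37.9 CPM in CTL1 to CTL4. In HUA1 to HUA4 it stood at 496, 237, 2098 and 1733 CPM. In XZSW1 to XZSW4 it stood at 29.9, 11.3, 34.7 and 50.8 CPM. The HUA values did not overlap either other group, but they fell far apart from each other, with HUA3 8.86 times HUA2. The XZSW values lay around the CTL range, with 1 library above all of CTL and 2 below it. Havcr1 rose from 37.9 ± 5.60 to 1141 ± 913 CPM in HUA (mean ± SD, n = 4), a log2 change of 4.91 (SE 0.66, adjusted p = 0.000271). It fell to 31.7 ± 16.3 CPM in XZSW, a log2 change of -5.17 against HUA (SE 0.67, adjusted p = 0.000695). Against CTL the XZSW change was -0.26 (95% interval -1.47 to 0.96, adjusted p = 0.827), so the interval runs from 0.36 to 1.94 times the CTL level. With a term added for the GC split of the libraries, the HUA rise was 3.89 on the log2 scale and the XZSW change against CTL was -0.96 (adjusted p = 0.319). Among the libraries of low GC slope, the single HUA library was 13.1 times the mean of the 4 CTL and 24.1 times that of the 2 XZSW libraries, which was 0.544 times the CTL mean. Among those of high slope, the mean of 3 HUA libraries was 31.7 times that of 2 XZSW libraries.

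Lcn2 was close to silent in CTL, at 1.42, 2.64, 0.517 and 3.10 CPM. In HUA1 to HUA4 it reached 413, 153, 454 and 713 CPM. In XZSW1 to XZSW4 it stood at 30.2, 7.39, 6.31 and 12.4 CPM. All 3 groups were apart, with every XZSW library above every CTL and below every HUA library. Lcn2 showed the largest fold of the 5 in HUA against CTL, with a log2 change of 7.81 (SE 0.77, 95% interval 6.15 to 9.46, adjusted p = 3.81e-05), from 1.92 ± 1.17 to 433.2 ± 229.6 CPM (n = 4). It fell by 4.94 on the log2 scale in XZSW against HUA (SE 0.67, adjusted p = 0.000898), to 14.1 ± 11.1 CPM. XZSW remained above CTL by 2.87 on the log2 scale (SE 0.63, 95% interval 1.52 to 4.21, adjusted p = 0.0249). This last call rests on few libraries. XZSW1 stood well above the other XZSW libraries, and without it the change was 2.17 with an adjusted p of 0.066. The call was also lost without CTL1 (adjusted p = 0.074), CTL2 (0.0718) or CTL3 (0.0737). Without XZSW1 the fall against HUA was larger, at -5.64.

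Neutrophils store NGAL protein, so their markers are given beside Lcn2. The summed level of 12 neutrophil genes was 1.29 to 4.19 CPM in CTL, 1.52 to 16.2 CPM in HUA and 2.75 to 9.26 CPM in XZSW. Of the 7 that could be tested, S100a9 and Ly6g were called higher in HUA and none was called in XZSW against HUA. Among all tested genes, 14.9% were called higher in HUA against CTL and 15.4% were called in XZSW against HUA. The median log2 change of the 7 was 2.82 in HUA against CTL and -1.56 in XZSW against HUA. S100a8 stood at a mean of 0.110 CPM in CTL and 0.800 CPM in HUA (adjusted p = 0.108). Too low to be tested, Ngp and Retnlg had means of 0.0436 and 0.0324 CPM in CTL and 0.354 and 0.552 CPM in HUA. Of the granule genes, Camp, Elane and Mpo had 0 counts in all 4 HUA libraries, and Camp had 0 in CTL too. Mmp8 stood at a mean of 0.0168 CPM in CTL and 0.713 CPM in HUA (adjusted p = 0.0511), and Ltf at 0.191 and 0.330 CPM (adjusted p = 0.603). The sum in HUA1 to HUA4 was 16.2, 4.68, 7.40 and 1.52 CPM, beside 413, 153, 454 and 713 CPM of Lcn2. The part of neutrophils in the Lcn2 result was not tested.

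Clu had the highest mean level of the 5 in HUA. It stood at 162, 147, 186 and 168 CPM in CTL1 to CTL4. In HUA1 to HUA4 it reached 2749, 1940, 4667 and 4931 CPM, which was 0.216% to 0.560% of all counts of a library. In XZSW1 to XZSW4 it stood at 542, 553, 770 and 615 CPM. The 3 groups were fully apart, with XZSW between CTL and HUA. Clu rose by 4.43 on the log2 scale in HUA (SE 0.29, adjusted p = 3.04e-06), from 166 ± 15.9 to 3572 ± 1460 CPM (n = 4). Its p-value was the fifth smallest of all tested genes in that comparison. It fell in XZSW against HUA by 2.53 (SE 0.27, adjusted p = 0.000248), to 619.9 ± 104.7 CPM. It stayed above CTL by 1.90 (SE 0.26, 95% interval 1.34 to 2.47, adjusted p = 0.00525), and this call was kept without any 1 library. The XZSW libraries of low GC slope alone were 3.31 times the CTL mean for Clu.

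Cd24a was already well expressed in CTL kidney and had the smallest log2 change of the 5 in HUA against CTL and in XZSW against HUA. It stood at 107, 108, 121 and 136 CPM in CTL1 to CTL4. In HUA1 to HUA4 it stood at 634, 474, 961 and 565 CPM. In XZSW1 to XZSW4 it stood at 172, 80.9, 140 and 208 CPM. HUA was apart from both other groups, whereas XZSW overlapped CTL, with 3 libraries above all of CTL and XZSW2 below all of it. Cd24a rose by 2.48 on the log2 scale in HUA (SE 0.28, adjusted p = 8.97e-05), from 118 ± 13.5 to 658 ± 212 CPM (n = 4). It fell by 2.13 in XZSW against HUA (SE 0.28, adjusted p = 0.00072), to 150.2 ± 53.9 CPM. The difference of XZSW from CTL was 0.35 (95% interval -0.23 to 0.92, adjusted p = 0.472).

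CD24 is also found on B cells and red cell precursors, so their markers are given beside Cd24a. Of 5 tested B and plasma cell genes 1 rose and 1 fell in HUA. The summed level of 8 B and plasma cell genes was 4.83 to 17.6 CPM in HUA and 16.6 to 43.8 CPM in CTL. The 6 erythroid genes summed to 19.3 to 202 CPM in HUA and 364 to 579 CPM in CTL, and 4 of the 5 tested fell in HUA. Of the defining B cell genes, Ms4a1 was at most 0.237 CPM in any library. The 8 urothelial genes, of which none was called, summed to 3.19 to 22.3 CPM in CTL and 3.78 to 41.7 CPM in HUA.

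Plaur was a low transcript in CTL, at 2.94, 3.03, 3.77 and 4.71 CPM. In HUA1 to HUA4 it reached 89.2, 48.1, 99.8 and 38.0 CPM. In XZSW1 to XZSW4 it stood at 8.04, 2.22, 4.36 and 5.95 CPM. HUA was apart from the other groups, and XZSW overlapped CTL, with 2 libraries above and 1 below all of CTL. Plaur rose by 4.25 on the log2 scale in HUA (SE 0.42, adjusted p = 3.81e-05), from 3.61 ± 0.819 to 68.8 ± 30.3 CPM (n = 4). It fell by 3.74 in XZSW against HUA (SE 0.41, adjusted p = 0.000307), to 5.14 ± 2.46 CPM. The difference of XZSW from CTL was 0.51 (95% interval -0.30 to 1.32, adjusted p = 0.451).

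Macrophages carry uPAR, and macrophage markers moved with the groups too. Of 12 macrophage genes 10 rose in HUA against CTL, 4 fell in XZSW against HUA, and 4 were called higher in XZSW against CTL. The shares over all tested genes were 14.9%, 8.34% and 2.72% in the same order. Their summed level was 77.8 to 133 CPM in CTL, 344 to 478 CPM in HUA and 105 to 274 CPM in XZSW. The marker Cd68 stood at 1.69 ± 0.501 CPM in CTL, 10.8 ± 1.35 CPM in HUA and 5.37 ± 1.93 CPM in XZSW (n = 4). Not called in HUA were Csf1r, at means of 46.3 CPM in CTL and 52.1 CPM in HUA (adjusted p = 0.814), and Adgre1, at 1.01 and 3.65 CPM (adjusted p = 0.0555). Cd14 alone had means of 5.34 CPM in CTL, 134 CPM in HUA and 12.5 CPM in XZSW, a large part of the HUA sum. The part of macrophages in the Plaur result was not tested.

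**Figure D2:**
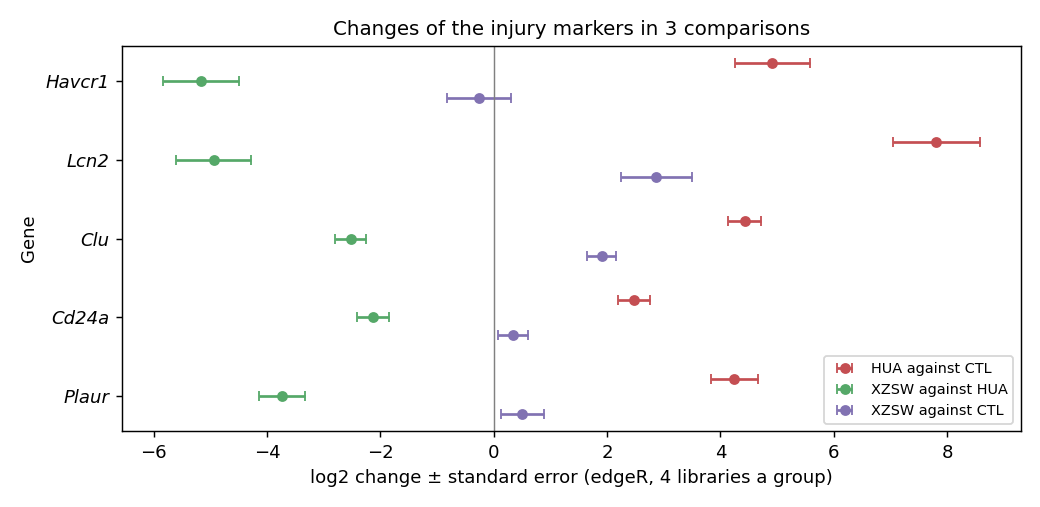
Fitted log2 change of each marker with its standard error for HUA relative to CTL, then XZSW relative to HUA, then XZSW relative to CTL (edgeR, 4 libraries a group). All 5 lie above 0 in the first comparison and below 0 in the second, and only Lcn2 (2.87) and Clu (1.90) were called in the third.

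Measured per length, the order of the 5 markers was not the same in the 3 groups. In CTL, Clu (38.2 ± 5.08 FPKM) and Cd24a (36.3 ± 5.47 FPKM) were highest and overlapped, followed by Havcr1 (12.9 ± 1.54 FPKM), then Plaur (1.08 ± 0.284 FPKM) and Lcn2 (0.562 ± 0.354 FPKM), which overlapped. In HUA, Clu led at 1051 ± 439 FPKM and Havcr1 followed at 501 ± 406 FPKM with overlapping values. Cd24a (258 ± 87.3 FPKM) and Lcn2 (167 ± 88.6 FPKM) came next, overlapping each other and Havcr1, and Plaur was lowest at 26.5 ± 11.9 FPKM, below every value of the others. In XZSW, Clu stood at 168 ± 34.8 FPKM, above Cd24a at 54.5 ± 20.9 FPKM in every library. Havcr1 was at 12.9 ± 6.86 FPKM, Lcn2 at 2.31 to 10.9 FPKM and Plaur at 1.83 ± 0.913 FPKM, and neighbours among these 3 overlapped. Among all genes by FPKM, Clu ranked 957 to 1199 in CTL libraries and 24 to 56 in HUA libraries. Lcn2 ranked 11705 to 16866 in CTL and 124 to 757 in HUA.

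The share of the HUA rise that was still present in XZSW was read from mean CPM as the XZSW minus CTL difference over the HUA minus CTL difference. For Clu 13.3% of the rise remained, with 11.1% to 17.7% in single XZSW libraries. For Lcn2 it was 2.82%, with 1.02% to 6.57% in single libraries. For Cd24a it was 5.94% (-6.88% to 16.7%), for Plaur 2.34% (-2.14% to 6.79%) and for Havcr1 -0.561% (-2.41% to 1.18%). These shares are a description with no test, and the ranges of the last 3 include 0. The ranges hold the CTL and HUA means fixed, so they leave out the spread of those groups. A small share of a large rise can still be a large fold over CTL. On the log2 scale Lcn2 in XZSW stood 2.87 above CTL, beside a HUA rise of 7.81, and Cd24a 0.35 above, beside a rise of 2.48.

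Ratios between members within a library do not depend on how libraries are scaled. The 10 pairs were compared in the 3 comparisons with two-sided exact permutation tests of log2 FPKM ratios, 4 libraries against 4, where the smallest possible p is 0.0286. Of the 30 tests 19 reached it, with an adjusted p of 0.0451. They were 7 in HUA against CTL, 5 in XZSW against HUA and 7 in XZSW against CTL. The log2 ratio of Havcr1 to Clu was -1.56 ± 0.36 in CTL and -1.47 ± 0.86 in HUA (exact permutation p = 0.857, n = 4), and it dropped to -3.89 ± 0.85 in XZSW, below every CTL and HUA library (exact permutation p = 0.0286). The ratio of Clu to Cd24a was 0.08 ± 0.14 in CTL, 1.98 ± 0.50 in HUA and 1.70 ± 0.60 in XZSW, so that both model groups lay above CTL in every library (exact permutation p = 0.0286 for each, n = 4). The ratio of Cd24a to Plaur was 5.09 ± 0.15 in CTL, 3.34 ± 0.44 in HUA and 4.96 ± 0.36 in XZSW. HUA was below both other groups (exact permutation p = 0.0286 for each), while XZSW and CTL overlapped (exact permutation p = 0.629, n = 4). The ratio of Lcn2 to Clu was -6.38 ± 1.33 in CTL, -2.75 ± 0.45 in HUA and -5.35 ± 1.18 in XZSW, with HUA above both others. Clu thus stood higher relative to Havcr1 and Cd24a in XZSW than in CTL. Relative to Lcn2, also a marker of nephron epithelium, this was not seen. The mean Lcn2 to Clu ratio was higher in XZSW than in CTL, with overlapping values (exact permutation p = 0.343, n = 4).

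**Figure D3:**
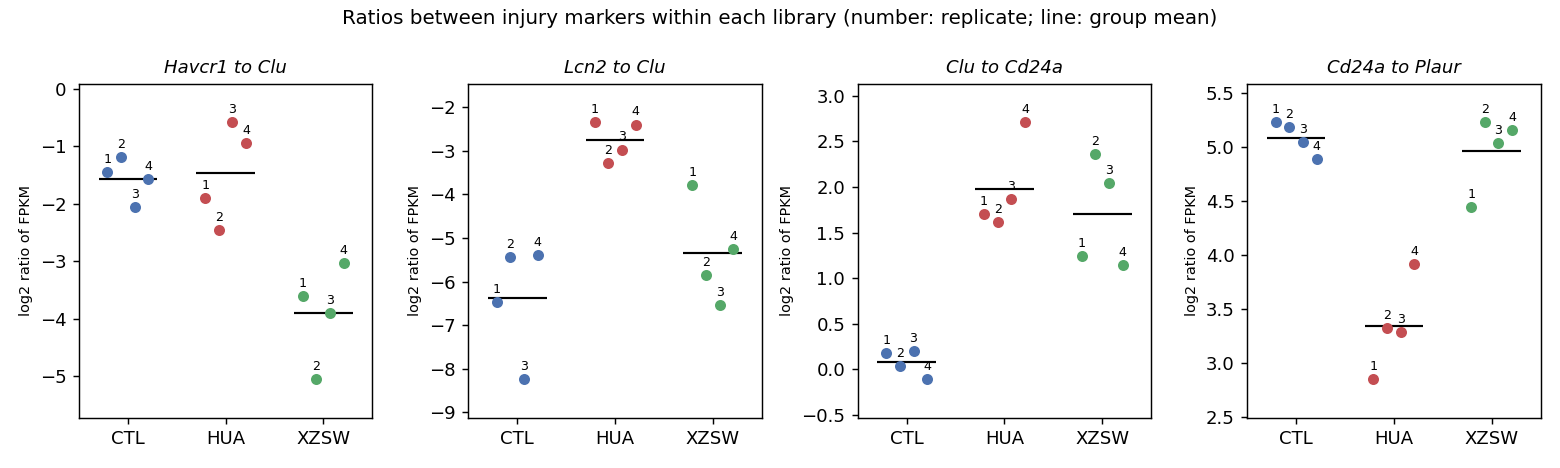
Log2 ratio of FPKM of a pair of markers in each library, by group; points carry replicate numbers and lines are group means of 4. Havcr1 to Clu is lowest in XZSW (-5.05 to -3.02), while Cd24a to Plaur in XZSW (4.44 to 5.23) overlaps CTL and lies above HUA.

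The HUA libraries differed among themselves, and not in the same order for each gene. The coefficient of variation over the 4 HUA libraries was 80.0% for Havcr1, 53.0% for Lcn2, 44.1% for Plaur, 40.9% for Clu and 32.2% for Cd24a. HUA2 was the lowest HUA library for Havcr1, Lcn2, Clu and Cd24a. It also had the highest summed proximal tubule level of the HUA libraries, at 21604 CPM, against 11564, 9393 and 7758 CPM in HUA1, HUA3 and HUA4. That sum leans on the single gene Kap, with a mean of 7226 CPM in HUA, and not every gene of the list had this order. Lrp2 and Cubn were higher in HUA1 (929 and 260 CPM) than in HUA2 (776 and 219 CPM). HUA4, lowest in that sum, was highest for Lcn2 and Clu but lowest for Plaur. In XZSW, XZSW2 was lowest for Havcr1, Cd24a and Plaur and highest in the proximal tubule sum, at 32966 CPM. The part of tubule content in these differences was not tested.

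Genes with the pattern most like each member were ranked among 10026 candidates, as a description with no test. The measure was the root mean square difference over the 12 libraries in log2 (CPM + 0.5) above the CTL mean. The added 0.5 shrinks the changes of genes near 0 CPM. Cd24a had the closest match, the actin crosslinker Flna at 0.17 log2 units, followed by Micall2 and the epithelial transcription factor Elf3 at 0.28 each. Plaur was nearest to Sfn (0.36) and the transcription factor Runx1 (0.37). Clu was nearest to Arhgap36 (0.55), Clcf1 (0.57) and Smpdl3b (0.57). Havcr1 was nearest to Timp1 (0.77) and Slc34a2 (0.83), and Lcn2 to the interleukin-1 family genes Il1f6 (1.11) and Il1rn (1.26). A near match is thus not an equal fitted change. The fitted HUA rise was 11.97 for Arhgap36, 3.99 for Clcf1 and 4.57 for Smpdl3b, beside 4.43 for Clu. It was 10.97 for Il1f6 and 7.66 for Il1rn, beside 7.81 for Lcn2. Among the members themselves, Cd24a and Plaur were closest (0.94) and Cd24a and Lcn2 farthest apart (3.24).

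Other proposed biomarkers of kidney injury were followed beside the 5. Of a list of 26 genes that holds 4 of the members, 25 were tested. Of the 21 that are no members, 11 rose and 1 fell in HUA against CTL with a median log2 change of 1.41, and 10 fell and 1 rose in XZSW against HUA with a median of -1.03. The shares over all tested genes were 14.9% higher and 12.8% lower in HUA against CTL, and 8.34% lower and 7.09% higher in XZSW against HUA. Spp1, which encodes osteopontin, rose from a mean of 512 CPM in CTL to 5597 to 44351 CPM in the HUA libraries and stood at 1167 ± 258 CPM in XZSW (n = 4), where it fell by 4.14 on the log2 scale against HUA. Without HUA4, the library with 44351 CPM of Spp1, its rise was 4.65 in place of 5.32. The protease inhibitor Timp1 rose by 5.96 (adjusted p = 8.76e-05) and fell by 4.99 in XZSW, or 5.30 and 4.31 without HUA3. The repair-associated transcription factor gene Sox9 rose by 5.50 (adjusted p = 2.91e-05) and fell by 5.06. The keratin Krt18 rose by 4.17 (adjusted p = 2.28e-06), fell by 2.94 in XZSW and, like Clu and Lcn2, remained above CTL there, by 1.23 (adjusted p = 0.0157). That last call was lost without CTL2 (adjusted p = 0.0583) or CTL3 (0.0504). The stress cytokine Gdf15 rose by 3.02, or 3.70 without CTL4 and 2.22 with a GC term, and fell by 4.28, and the adhesion molecule Vcam1 rose by 3.27 and fell by 2.02. Egf, a growth factor of the distal nephron, was the member of the list that fell, from 848 ± 116 to 100.3 ± 91.6 CPM, and it rose in XZSW to 439 ± 175 CPM (adjusted p = 0.0355). The Egf rise lost its call without CTL2, HUA3, XZSW2, XZSW3 or XZSW4, with adjusted p of 0.0508 to 0.0883.

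Several other markers in clinical use were not called in HUA against CTL. Cst3, which encodes cystatin C, was 0.37 higher on the log2 scale in HUA (adjusted p = 0.234), and B2m 0.47 higher (adjusted p = 0.0805). Timp2 and Igfbp7, the pair measured in urine for cell cycle arrest, had log2 changes of 0.57 (adjusted p = 0.195) and 0.01 (adjusted p = 0.977). Umod, which encodes uromodulin of the thick ascending limb, had a change of -0.20 (adjusted p = 0.737). Il18, Fabp1, Chil1 and Hmox1 were not called either. The first 3 were low, with group means of at most 1.93 CPM for Il18, 0.552 CPM for Fabp1 and 0.184 CPM for Chil1. The log2 changes of Fabp1 and Chil1 had standard errors of 0.98 and 1.49, so that small changes in them could not be seen. Hmox1 stood at 187 CPM in CTL4, beside 34.7, 54.6 and 56.4 CPM in CTL1, CTL2 and CTL3.

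**Figure D4:**
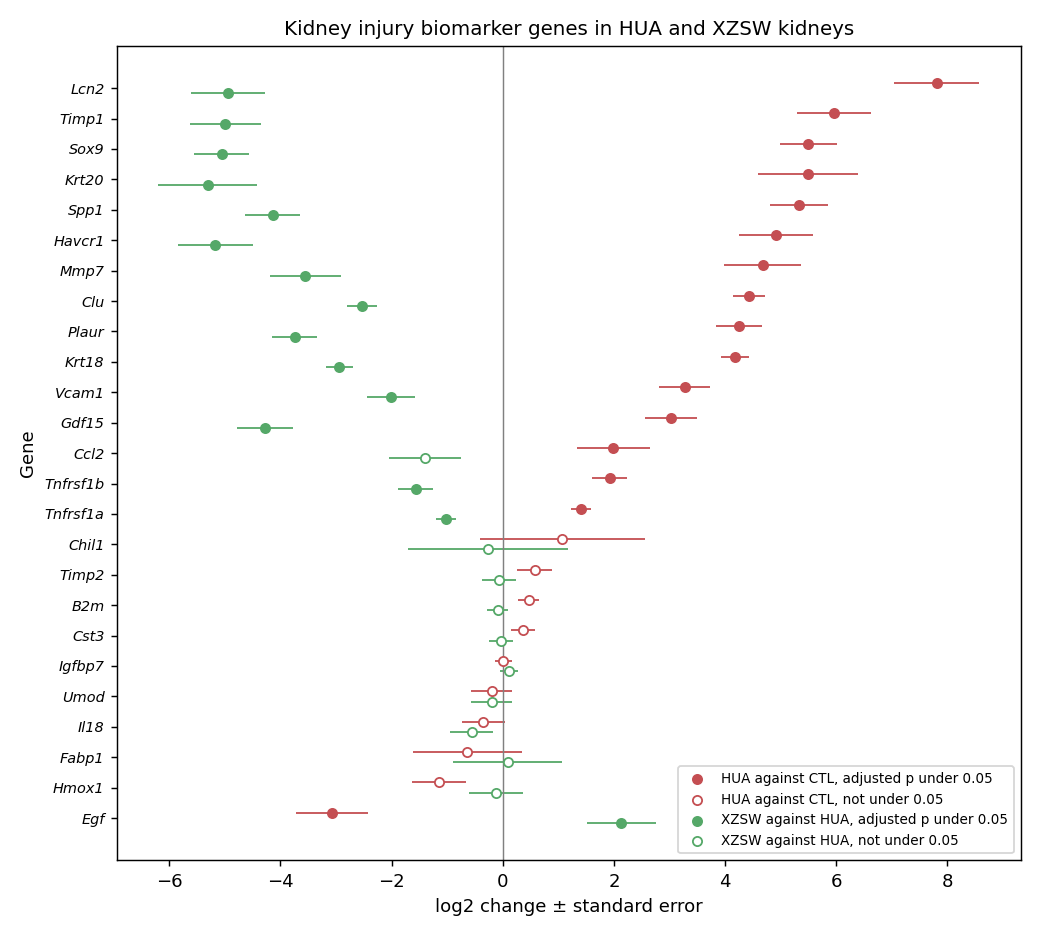
Log2 change with standard error of the 25 tested injury biomarker genes in HUA against CTL and XZSW against HUA; filled points had an adjusted p under 0.05. Lcn2 has the largest rise (7.81), Egf is the 1 called fall in HUA, and 9 genes were not called, with changes from -1.15 (Hmox1) to 1.07 (Chil1).

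KIM-1 acts with a set of receptors and bridging proteins for phosphatidylserine. Of 13 tested genes of this list, 6 rose and 2 fell in HUA against CTL, or 5 and 2 without Havcr1, and 5 fell and 1 rose in XZSW against HUA. The shares over all tested genes were 14.9% higher and 12.8% lower in HUA against CTL, and 8.34% lower and 7.09% higher in XZSW against HUA. Timd2, another TIM family gene, stood at 70.8 ± 5.10 CPM in CTL, 217 ± 131 CPM in HUA and 58.2 ± 10.5 CPM in XZSW (n = 4). It rose by 1.62 (adjusted p = 0.00448) and fell by 1.90 (adjusted p = 0.00458). The bridging proteins Mfge8 and Pros1 rose by 1.55 and 1.66 and fell in XZSW by 1.34 and 1.03. Of the receptor kinases, Axl rose by 1.13 (adjusted p = 0.0123), Mertk fell by 0.99 (adjusted p = 0.0116) and Tyro3 was 0.84 higher without a call (adjusted p = 0.103). Their ligand Gas6 had a change of 0.03 (adjusted p = 0.9). The lipid scavenger receptor Cd36 fell by 1.56 in HUA and stayed below CTL in XZSW, by -1.17 (adjusted p = 0.0221), a call lost without CTL2, CTL3, XZSW3 or XZSW4 (adjusted p of 0.0536 to 0.0737). With that GC term, 5 genes of the list were called in HUA against CTL in place of 8, and the calls of Axl (0.92, adjusted p = 0.0877), Mertk (-0.61, adjusted p = 0.126) and Timd2 (1.07, adjusted p = 0.0892) were lost.

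Genes for the uptake of NGAL and for iron handling went in both directions. Of 14 tested, 3 rose and 5 fell in HUA against CTL, with a median log2 change of -0.52, and 5 rose and 2 fell in XZSW against HUA. Over all tested genes, 14.9% were called higher and 12.8% lower in the first comparison, and 7.09% higher and 8.34% lower in the second. Megalin (Lrp2), the endocytic receptor that takes up NGAL and clusterin from the filtrate, stood at 1892 ± 265 CPM in CTL, 608 ± 308 CPM in HUA and 1403 ± 160 CPM in XZSW (n = 4). It fell by 1.64 (adjusted p = 0.00243) and rose by 1.21 in XZSW (adjusted p = 0.0226), the second call being lost without HUA3 (adjusted p = 0.0696) or XZSW2 (0.0572). Its partner Cubn fell by 1.24 (adjusted p = 0.00708, or 0.0698 with a GC term), and Bdh2, an enzyme assigned to the making of a mammalian siderophore, fell by 1.25 and rose by 1.03. The NGAL receptor Slc22a17 was not called in HUA, at 28.4 ± 1.42 CPM in CTL and 24.2 ± 4.24 CPM in HUA (adjusted p = 0.337), and it was 0.76 higher in XZSW than in HUA (adjusted p = 0.01). Ceruloplasmin (Cp), a ferroxidase, rose by 3.57 and fell by 3.16, and the iron exporter Slc40a1 rose by 1.17 and fell by 0.71. The ferritin heavy chain gene Fth1 was at 3972 ± 167 and 3990 ± 1716 CPM (adjusted p = 0.988).

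Of 11 tested clusterin receptors and partners, 2 rose and 3 fell in HUA against CTL, where 14.9% of all tested genes were called higher and 12.8% lower. Apart from Lrp2, these were Trem2, Bax, Vldlr and C8a, all with adjusted p between 0.0228 and 0.0467, and each lost its call when single libraries were left out. Lrp2 alone was called in XZSW against HUA, where 15.4% of all tested genes were called. Of 7 tested CD24 ligands and partners, Selp, Lyn and L1cam were called higher in HUA and none was called in XZSW against HUA. Beside these counts stand the same shares over all tested genes, 14.9% higher in HUA against CTL and 15.4% called in XZSW against HUA. The adhesion molecule L1cam rose by 0.93 in HUA (adjusted p = 0.00142) and was also above CTL in XZSW, by 0.95 (adjusted p = 0.0132, or 0.0529 without CTL2). Selp, which encodes the CD24 ligand P-selectin, had 0 counts in all CTL libraries and 0.189 to 1.51 CPM in HUA. The kinase Lyn was 0.54 higher in HUA (adjusted p = 0.0356), a call lost without CTL1, CTL2, CTL4, HUA1 or HUA3.

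Many genes of the urokinase system were called with its receptor. Of 19 tested genes that do not include Plaur, 12 rose and 1 fell in HUA against CTL, with a median log2 change of 1.22, and 7 fell and none rose in XZSW against HUA, with a median of -0.96. Over all tested genes, 14.9% were called higher and 12.8% lower in the first comparison, and 8.34% lower and 7.09% higher in the second. Plau, which encodes urokinase, stood at 222 ± 36.2 CPM in CTL, 1070 ± 485 CPM in HUA and 233 ± 138 CPM in XZSW (n = 4). It rose by 2.27 (adjusted p = 0.00176) and fell by 2.20 (adjusted p = 0.00514). Serpine2, which encodes a secreted inhibitor of serine proteases, rose by 2.62 (adjusted p = 0.0008). Plat, the tissue plasminogen activator gene, rose by 1.12 (adjusted p = 0.0437), a call lost on leaving out any of 7 single libraries, and it stood at 83.0 ± 53.3 CPM in XZSW against 64.9 ± 29.6 CPM in HUA (adjusted p = 0.585).

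Among cell surface partners of uPAR, the endocytic receptor gene Lrp1 was not called in HUA (log2 change 0.53, adjusted p = 0.246). The integrin genes Itgav and Itgb1 rose by 0.95 and 0.70 and fell in XZSW by 1.13 and 1.00. Itgb3 rose by 2.14 and Itgam, the integrin of myeloid cells, by 4.08, and both remained above CTL in XZSW, by 1.61 (adjusted p = 0.0354) and 3.06 (adjusted p = 0.0158). The Itgb3 call in XZSW was lost when any 1 of the 4 CTL libraries, XZSW1, XZSW3 or XZSW4 was left out (adjusted p of 0.0516 to 0.107), and that of Itgam without CTL2 (0.0553) or CTL3 (0.0573). The plasminogen-binding pair Anxa2 and S100a10 rose by 3.15 and 1.86 and fell by 2.32 and 2.13. Plasmin inhibitor Serpinf2 was the gene of the list that fell, by 0.87 (adjusted p = 0.00653, or 0.0523 with a GC term). Plg, the plasminogen gene itself, had at most 0.22 CPM as a group mean. Itgam is also in the macrophage list given above.

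**Figure D5:**
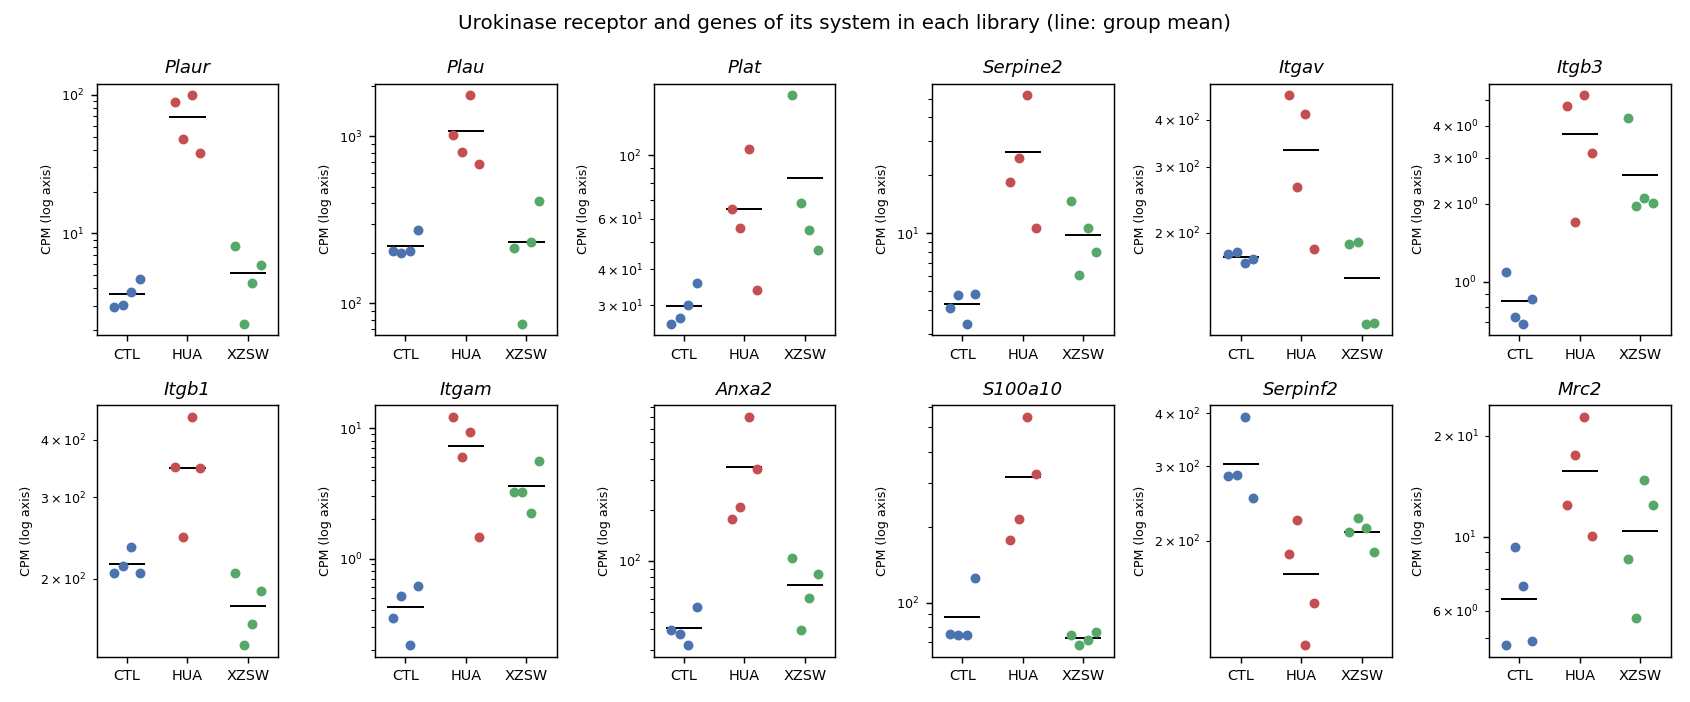
CPM of Plaur and 11 genes of its system in each library on a log axis, by group, with lines at group means of 4. Plaur and Plau in HUA lie above CTL and XZSW in every library, whereas Plat in XZSW overlaps HUA.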

How the data were processed

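RNA of 12 mouse kidney samples was measured by strand-specific sequencing, per the labels' protocols. Reads were trimmed with cutadapt 1.9 and aligned with HISAT2 2.2.1, and GRCm38 is the genome build, per the submitters' processing notes. The counting tool, annotation release and any filters are not given in the sources used here. For each gene and sample the table deposited by the authors holds an FPKM value and a raw count, per the file headers. Samples were grouped by their titles and matched to columns through the sample descriptions.

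Genes were kept by edgeR's filterByExpr, counts were scaled by TMM, and the 3 pairs of groups were compared by the quasi-likelihood F-test in a fit to all 12 libraries. Genes were called at an adjusted p under 0.05 (Benjamini-Hochberg, all tested genes). Standard errors came from the F statistic. Levels are mean ± SD of TMM-scaled CPM. The intervals of log2 changes are 95% intervals from the fit. Ratios of FPKM were compared by exact permutation. The fitting script was tested on simulated data. The depth of 51.6 to 74.3 M counts left replicate counts varying more than counting error allows (chi-square per degree of freedom 25.8 to 453).

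Named genes were the 5 members, from each list the 4 with the smallest p in HUA against CTL and any called in XZSW against HUA, genes whose role is described, and for each member the 5 genes most alike whose highest group mean reached 2 FPKM; not all that the rule names are printed, and some genes are not reported here. The members, lists and tests were chosen with earlier results of these data known. Alternatives were no filter, RLE factors, library totals, DESeq2, limma on log2(FPKM + 1) and log2(FPKM + 0.1), fits on 8 libraries, a replicate block, a term for the GC split at a slope of 0.15, and leaving out each library. Genome annotation was GENCODE of GRCm38, and copies were searched with blastn 2.17.0. Tools were edgeR 4.0.16, DESeq2 1.42.0 and limma 3.58.1 in R 4.3.3, and pandas 2.3.3, scipy 1.17.1 and matplotlib 3.10.9 in Python 3.11.15.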

Additional observations from a re-analysis of the deposited data

How the results depend on the processing

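Over the alternatives, the log2 changes of the 5 markers gave 315 values, of which 310 kept their direction and their side of the threshold. Leaving out single libraries, Lcn2 in XZSW against CTL ranged from 2.17 to 3.20, with the call lost in 4 of these fits, and Havcr1 in XZSW against CTL ranged from -0.58 to 0.02, turning to 0.0229 without XZSW2, and was -0.96 once a GC term was added. The iron handling list had 4 called genes in XZSW against HUA in place of 7 in the fit on the 8 libraries of the comparison, and 4 to 8 when single libraries were left out. The list of TIM and phosphatidylserine receptors had 8 called genes in HUA against CTL, and 5 once a GC term was added. Scaling by library totals moved the median of all genes by 0.33 in HUA against CTL, by -0.17 in XZSW against HUA and by 0.16 in XZSW against CTL, and kept every call of the 5 markers. On log2(FPKM + 1) the low genes changed less, with 6.58 for Lcn2 and 3.62 for Plaur in HUA against CTL and 1.76 for Lcn2 in XZSW against CTL. Over all genes, 987 were called in XZSW against CTL, 2417 by DESeq2, and 133 to 1596 without a single library. In XZSW against HUA 3051 were called, and 1439 in the fit on 8 libraries. With the replicate number as a replicate block, the HUA rises were 4.41 for Havcr1, 7.81 for Lcn2, 4.35 for Clu, 2.45 for Cd24a and 4.18 for Plaur, and no call of the 5 changed. Whether the numbers pair the samples is not stated in the labels and was not settled here. Deviations of same-numbered libraries correlated between -0.04 and 0.27 over genes, and 4 of 12 pairs exceeded 0.1. Libraries of different number correlated between -0.29 and 0.15, and 4 of 36 pairs exceeded 0.1. The causes of these shifts were not tested.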
